A study of Mus musculus with 21 samples.

Results

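The 5 miRNA strands described here, miR-31-5p, miR-31-3p, miR-203-3p, miR-192-5p and miR-194-5p, were chosen by name as miRNAs of epithelia that lie outside the miR-200, miR-205 and miR-183 clusters. They made up 6 of 1909 entries in the small-RNA count tables of the virgin cohort, where miR-203-3p was split into the entries miR-203-3p.1 and miR-203-3p.2, and 5 of 1841 entries in those of the breeding trial cohort. The comparisons asked whether the fall of epithelial miRNAs in *Zeb1* mutant pituitary extends to these strands, and whether miR-31 behaves differently in the 2 cohorts.

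All libraries were from whole pituitary of female C57BL/6J mice staged in proestrus. Besides WT mice, there were *Zeb1 200H* mice, heterozygous for a knock-in allele with point mutations in the predicted miR-200a/b sites of the *Zeb1* 3′ UTR, and *Zeb1 200M* mice, homozygous for it. In the virgin cohort, aged 8 to 12 weeks, there were 3 WT, 4 *Zeb1 200H* and 4 *Zeb1 200M* libraries. In the breeding trial cohort, aged 28 to 36 weeks and mated before collection, there were 4 WT, 3 *Zeb1 200H* and 3 *Zeb1 200M* libraries. Replicates were different mice. The allele was kept as lines from 2 ES cell clones, 6B6 and 3C5, and which library came from which line is not given in the sources used here. Whole tissue was sequenced, so fewer cells of a type and less RNA per cell cannot be told apart.

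The *Zeb1* gene encodes a repressor of epithelial genes, and it forms a double-negative loop with the miR-200 family, each side holding down the other. Among the miRNAs described here, miR-31 is abundant in squamous and glandular epithelia, and miR-203 is a skin miRNA that limits the renewal of epidermal progenitors. The pair miR-192 and miR-194, transcribed together, marks gut, liver and kidney epithelium. None belongs to the miR-200 family.

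Depth differed by cohort. Virgin libraries held from 3816917 to 10806313 miRNA counts, with a median of 9698685, and breeding trial libraries held from 60037 to 191650. Levels are given as CPM, counts scaled to the miRNA total of the library. At a similar level of about 100 CPM, miR-31-5p rested on 747 to 1079 counts in virgin mutant libraries and on 5 to 19 counts in breeding trial libraries. Intervals of single libraries and detection floors cover counting error only.

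The virgin WT replicate 1 stood apart from the other libraries. It had the lowest total of its cohort, 3816917 counts, and 836 miRNAs detected, compared with 1040 to 1079 in the other virgin libraries. Its TMM factor, edgeR's correction for differences in composition, was 0.616, compared with 0.943 to 1.119 in the others. Each member's virgin change against WT is given below with and without it, while values of partner strands and lists include it. *Zeb1 200H* and *Zeb1 200M* were compared with the same WT libraries, so their changes against WT are not independent. Where mutant and WT libraries of a member or list do not overlap below, the share of all miRNAs that separate likewise was not counted. Such separation is therefore only described, and on the TMM scale the factor of 0.616 raises the values of WT replicate 1.

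The mature sequences are shown because the seed, bases 2 to 8 and written in capitals, sets which mRNAs a miRNA pairs with. They are from RefSeq on GRCm38, in which all 5 members were matched by name.
miR-31-5p: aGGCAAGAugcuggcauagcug
miR-31-3p: uGCUAUGCcaacauauugccauc
miR-203-3p: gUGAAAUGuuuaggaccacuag
miR-192-5p: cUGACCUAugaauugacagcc
miR-194-5p: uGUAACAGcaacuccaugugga
miR-215-5p: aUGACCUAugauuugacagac
The seed of miR-192-5p was shared with miR-215-5p, and the other 4 members shared their seed with no other mouse miRNA in the same reference. The sequences that separate miR-203-3p.1 from miR-203-3p.2 were not available among the sources used here.

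The hairpins lie at 5 loci of GRCm38. *Mir31* is at chr4:88910557-88910662 on the minus strand, within an exon of the long noncoding RNA AL805899.1 on the same strand, and yields both miR-31-5p and miR-31-3p. *Mir203* is at chr12:112130880-112130955 on the plus strand between genes, 3321 bp from *Aspg*. *Mir194-2* at chr19:6264643-6264728 and *Mir192* at chr19:6264844-6264932 are on the plus strand with 115 bases between them, and the nearest gene is *Atg2a*. The other copy, *Mir194-1* at chr1:185313319-185313385, is followed by *Mir215* at chr1:185313581-185313692, both on the plus strand and within *2010103J01Rik*, an antisense RNA of *Iars2*. Since *Mir194-1* and *Mir194-2* give the same miR-194-5p, its counts cannot be assigned to a locus.

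In WT pituitary of both cohorts, miR-194-5p was the most abundant member. In the virgin cohort, miR-194-5p ranked 124th of 1170 detected miRNAs by mean CPM, followed by miR-31-5p at 204, miR-192-5p at 276, miR-203-3p.2 at 281, miR-203-3p.1 at 290 and miR-31-3p at 367. Without WT replicate 1, the mean was 447 CPM ± 8.90 (SD, n = 2) for miR-194-5p, 220 ± 1.59 for miR-31-5p and 30.7 ± 0.75 for miR-31-3p. It was 102.3 ± 0.87 for miR-203-3p.2, 101.6 ± 1.25 for miR-192-5p and 80.8 ± 8.24 for miR-203-3p.1. The order of miR-203-3p.2 and miR-192-5p thus turned, and they did not differ beyond their spread. In each virgin WT library miR-194-5p was the highest member, miR-31-5p came next and miR-31-3p was the lowest. Among breeding trial WT libraries, miR-194-5p ranked 151st of 641, and miR-203-3p, miR-192-5p and miR-31-5p ranked 241, 244 and 249. Their WT means of 109 ± 20.2, 106 ± 13.5 and 100.3 ± 18.2 CPM (SD, n = 4) did not differ beyond their spread.

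miR-31-5p was lower in each virgin mutant library than in any virgin WT library. Its level was 226, 221 and 219 CPM in WT replicates 1, 2 and 4. In *Zeb1 200H* it was 102, 103, 101 and 99.4 CPM, and in *Zeb1 200M* it was 92.9, 102, 87.9 and 105 CPM. The WT values were tight, WT replicate 1 included, and the mutant groups overlapped with each other but not with WT. On the TMM scale, WT replicate 1 moved up to 367 CPM, compared with 234 and 223 CPM in the other WT libraries, and the mutants stayed between 79.1 and 98.6 CPM.

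miR-31-5p fell 3.09-fold in virgin *Zeb1 200M* pituitary (log2 fold change −1.63 ± 0.20 SE, 95% interval −2.10 to −1.16, lower in 4 of 4 libraries). It fell 2.85-fold in virgin *Zeb1 200H* pituitary (−1.51 ± 0.20, −1.97 to −1.06, lower in 4 of 4). The adjusted p-values in edgeR's quasi-likelihood test with Benjamini-Hochberg adjustment were 0.00114 and 0.00220. With WT replicate 1 left out, the changes were −1.34 ± 0.10 and −1.24 ± 0.08, with edgeR Benjamini-Hochberg adjusted p-values of 2.23e-06 and 1.43e-07.

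Scaling to library totals alone moved the median log2 fold change of all miRNAs to 0.34 in virgin *Zeb1 200M* and 0.29 in virgin *Zeb1 200H*, from about 0 with TMM. Relative to those medians, miR-31-5p changed by −1.53 and −1.42, so its direction did not depend on the scaling. The same scaling moved the median to 0.23 and 0.18 in breeding trial *Zeb1 200M* and *Zeb1 200H*.

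**Figure D1:**
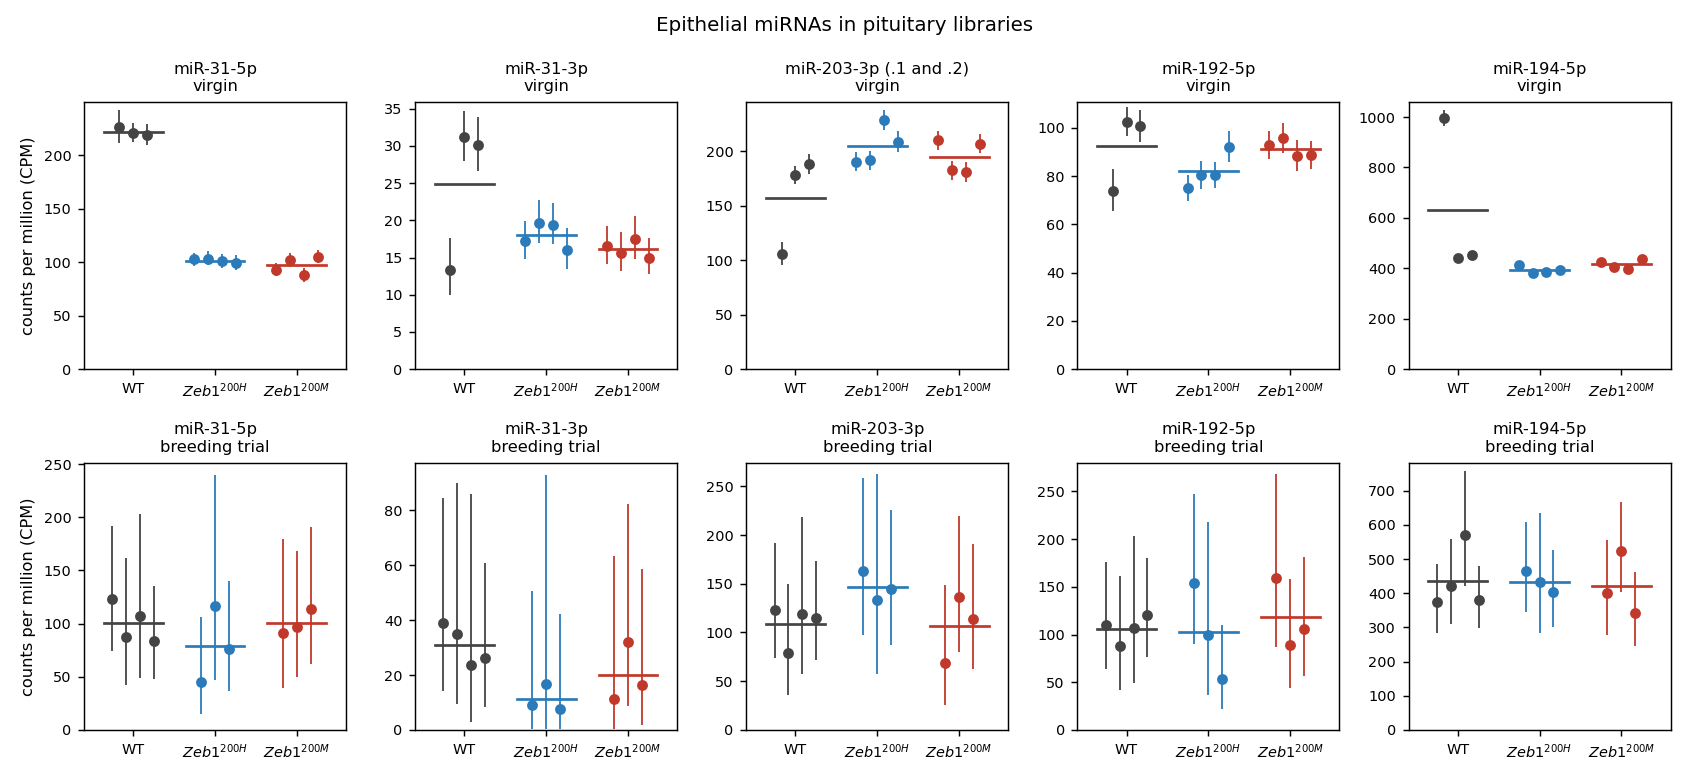
Levels (CPM, vertical axis) of the 5 strands in each library of the virgin cohort (top) and the breeding trial cohort (bottom), with 95% Clopper-Pearson counting intervals and the group mean as a line; the virgin entries of miR-203-3p are added up. Virgin WT miR-31-5p sits between 219 and 226 CPM, above the mutants and above breeding trial WT at 83.5 to 123 CPM, and the isolated WT point for miR-194-5p at 995 CPM is replicate 1.

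The other strand of the same hairpin, miR-31-3p, was counted less often. Its level was 13.4, 31.2 and 30.1 CPM in virgin WT replicates 1, 2 and 4, 17.2, 19.7, 19.4 and 16.0 CPM in *Zeb1 200H*, and 16.5, 15.7, 17.5 and 15.0 CPM in *Zeb1 200M*. WT replicate 1 was below all mutants in CPM while the other WT libraries were above them, and on the TMM scale every mutant library was below every WT library. miR-31-3p fell 1.94-fold in *Zeb1 200M* (−0.96 ± 0.19, lower in 4 of 4 libraries on the TMM scale, with an adjusted p of 0.0194 in edgeR after Benjamini-Hochberg correction). Leaving out any WT or *Zeb1 200M* library other than WT replicate 1 raised the adjusted p of edgeR above 0.05, to at most 0.0856, while the change stayed between −0.99 and −0.85. Library totals alone also ended it (−0.64, adjusted p = 0.211 in edgeR), with a change of −0.98 relative to the median of all miRNAs.

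In *Zeb1 200H*, the change of miR-31-3p was −0.74 ± 0.19, with an adjusted p of 0.0652 in edgeR after Benjamini-Hochberg correction, and missed the threshold. With all libraries kept, it passed in DESeq2 (−0.77, DESeq2 adjusted p = 0.0125) and in 1 edgeR fit with 3 genotypes (−0.755, edgeR adjusted p = 0.0103). Leaving out WT replicate 1, it fell in both mutants, by 1.08 and 0.89 on the log2 scale, with edgeR Benjamini-Hochberg adjusted p-values of 1.04e-04 and 4.05e-04. The ratio of miR-31-5p to miR-31-3p counts was 7.09 and 7.26 in WT replicates 2 and 4, and 16.9 in WT replicate 1. It ranged from 5.18 to 6.20 in *Zeb1 200H* and from 5.01 to 7.01 in *Zeb1 200M*. WT replicate 1 lay far from the rest. WT replicates 2 and 4 were also above every mutant library, though close to the highest *Zeb1 200M* value.

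The skin miRNA miR-203-3p gave no call in either mutant. miR-203-3p.1 was at 56.9, 75.0 and 86.6 CPM in virgin WT, 88.2, 81.9, 113 and 96.7 CPM in *Zeb1 200H*, and 93.9, 86.1, 84.1 and 99.7 CPM in *Zeb1 200M*. miR-203-3p.2 was at 48.7, 103 and 102 CPM in WT, 102, 110, 115 and 112 CPM in *Zeb1 200H*, and 116, 96.3, 96.6 and 107 CPM in *Zeb1 200M*. WT replicate 1 was lowest for both entries, and the 3 genotypes overlapped.

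The log2 fold changes of miR-203-3p.1 and miR-203-3p.2 were −0.06 (95% interval −0.40 to 0.29) and −0.03 (−0.42 to 0.35) in *Zeb1 200M*, and 0.06 (−0.33 to 0.45) and 0.10 (−0.26 to 0.45) in *Zeb1 200H*. The lowest of these bounds, −0.42, lies above the upper bound of miR-31-5p in both mutants. With library totals alone, the values in *Zeb1 200M* turned to 0.32 and 0.30, which is −0.02 and −0.04 relative to the median of all miRNAs. Leaving out WT replicate 1, the 4 changes were 0.01, −0.13, 0.11 and −0.03.

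Counting miR-31-5p against the sum of both miR-203-3p entries within a library, a measure picked after the values were seen and given without a test, removes the scaling. The ratio was 2.14, 1.24 and 1.16 in virgin WT replicates 1, 2 and 4. It ranged from 0.44 to 0.54 in *Zeb1 200H* and from 0.44 to 0.56 in *Zeb1 200M*, so miR-31-5p outnumbered this sum in each virgin WT library and was outnumbered by it in each virgin mutant library. This does not hold for each entry by itself: in *Zeb1 200H* replicate 1, miR-31-5p had 1052 counts, compared with 906 for miR-203-3p.1 and 1048 for miR-203-3p.2. In the breeding trial cohort the ratio to miR-203-3p overlapped between genotypes. There it ranged from 0.73 to 1.11 in WT, from 0.28 to 0.875 in *Zeb1 200H* and from 0.71 to 1.33 in *Zeb1 200M*.

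miR-192-5p, of gut and kidney epithelium, was at 73.9, 102 and 101 CPM in virgin WT. It was at 74.9, 80.4, 80.3 and 92.1 CPM in *Zeb1 200H*, and at 92.9, 95.8, 88.6 and 88.6 CPM in *Zeb1 200M*. In CPM the mutants fell between WT replicate 1 and the other WT libraries, and on the TMM scale they lay below all WT libraries. The changes, −0.40 ± 0.13 in *Zeb1 200M* and −0.50 ± 0.14 in *Zeb1 200H*, were not called (edgeR Benjamini-Hochberg adjusted p = 0.128 and 0.0954). With library totals alone they shrank to −0.02 and −0.17, which is −0.36 and −0.47 relative to the median of all miRNAs. When WT replicate 1 was left out, miR-192-5p fell in both, 1.24-fold and 1.36-fold, with edgeR Benjamini-Hochberg adjusted p-values of 0.0267 and 0.00836. With all libraries kept, DESeq2 called it in *Zeb1 200M* and *Zeb1 200H* (DESeq2 adjusted p = 0.0480 and 0.0134). So did 1 edgeR fit with 3 genotypes (edgeR adjusted p = 0.0435 and 0.0140).

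miR-194-5p, its cluster partner, was at 995, 441 and 454 CPM in virgin WT. It was at 415, 381, 385 and 395 CPM in *Zeb1 200H*, and at 424, 407, 397 and 438 CPM in *Zeb1 200M*. Every mutant library was below every WT library, but WT replicate 1 was far above the other 2 WT libraries. The changes were −1.15 ± 0.42 and −1.19 ± 0.42 in *Zeb1 200M* and *Zeb1 200H*, with edgeR Benjamini-Hochberg adjusted p-values of 0.157 and 0.174. With library totals alone they were −0.60 and −0.68, or −0.94 and −0.97 relative to the median of all miRNAs. Without WT replicate 1 they shrank to −0.26 ± 0.09, not called (0.0532), and −0.31 ± 0.08, called (0.0135), in the same edgeR test with Benjamini-Hochberg adjustment. With all libraries kept, DESeq2 called miR-194-5p in *Zeb1 200M* (DESeq2 adjusted p = 0.0482) and not in *Zeb1 200H* (0.0535).

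The ratio of miR-194-5p to miR-192-5p was 13.5 in WT replicate 1, compared with 4.30 and 4.50 in the other WT libraries and from 4.25 to 5.53 in the mutants. The strands that share these hairpins were rare. Over all virgin libraries miR-192-3p had 289 counts, miR-203-5p 197, miR-215-5p 122, miR-194-2-3p 57, and miR-194-1-3p and miR-215-3p 1 each. Of the miR-194 passenger strands, nearly all counts were thus from the *Mir194-2* hairpin beside *Mir192*. Of the 3 partners that were tested in the virgin cohort, miR-192-3p, miR-203-5p and miR-215-5p, edgeR called 0 against WT, with 0 at an unadjusted p under 0.05 and 0 by DESeq2, which gave miR-215-5p no adjusted p in *Zeb1 200M*. Among breeding trial libraries these 6 strands had from 0 to 4 counts each in total.

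In all, 2 of 6 entries were called in virgin *Zeb1 200M*, both lower, where 6.49% of the 678 miRNAs tested were called in either direction and 3.83% were called lower. In virgin *Zeb1 200H*, 1 of 6 was called, lower, where 5.06% of 672 were called in either direction and 3.42% lower. Without WT replicate 1 the members called were 3 of 6 in *Zeb1 200M*, where 23.9% of 703 miRNAs were called, and 4 of 6 in *Zeb1 200H*, where 21.6% of 699 were called. DESeq2 called 4 of 6 in *Zeb1 200M*, where 6.6% of 1318 miRNAs were called, and 3 of 6 in *Zeb1 200H*, where 4.93% of 1339 were called. These totals take in rare miRNAs that the edgeR filter left out, so the DESeq2 shares are not on the same base as those of edgeR. miR-31-5p was called in both mutants by every setting tried, and neither miR-203-3p entry was called by any.

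No member was called between the virgin mutants. Between *Zeb1 200M* and *Zeb1 200H*, edgeR called 0 of 6 entries, with 0 at an unadjusted p under 0.05 and 0 by DESeq2, where 2.22% of 675 miRNAs were called. The change of miR-31-5p from *Zeb1 200H* to *Zeb1 200M* was −0.12 (95% interval −0.29 to 0.05). That of miR-31-3p was −0.22 (−0.47 to 0.04).

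In the breeding trial cohort, no member was called. The WT level of miR-31-5p was lower than in virgin WT, in cohorts that also differ in library preparation and depth. Its level was 123, 87.8, 107 and 83.5 CPM in WT replicates 1 to 4, from 19, 10, 9 and 16 counts. In *Zeb1 200H* it was 45.5, 117 and 76.1 CPM, from 5, 7 and 10 counts, and in *Zeb1 200M* it was 91.3, 96.6 and 114 CPM, from 8, 12 and 14 counts. The genotypes overlapped, and the counting intervals were wide: for WT replicate 1, 74.0 to 192 CPM. The change was −0.21 ± 0.31 (95% interval −0.85 to 0.44) in *Zeb1 200M* and −0.60 ± 0.37 (−1.38 to 0.17) in *Zeb1 200H*, the former turning to 0.03 with library totals alone, which is −0.20 relative to the median of all miRNAs.

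miR-31-3p had 6, 4, 2 and 5 counts in breeding trial WT, 1 count in each *Zeb1 200H* library, and 1, 4 and 2 counts in *Zeb1 200M*. It failed the filter on low counts, so edgeR tested it within this cohort only with the filter left off. The change was then −0.82 ± 0.67 in *Zeb1 200M* and −1.73 ± 0.81 in *Zeb1 200H*, neither called (edgeR Benjamini-Hochberg adjusted p = 0.566 and 0.294), the latter with an unadjusted p of 0.0331. In the fit over both cohorts used below, the change in *Zeb1 200H* was −1.79 (95% interval −3.31 to −0.27, unadjusted). In CPM, each *Zeb1 200H* library lay below each WT library, 7.61 to 16.7 compared with 23.8 to 38.8, but all of these *Zeb1 200H* values, and WT replicate 3 with 2 counts, were under the floor that 3 counts set in their libraries.

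miR-203-3p was at 123, 79.0, 119 and 115 CPM in breeding trial WT, 164, 133 and 145 CPM in *Zeb1 200H*, and 68.4, 137 and 114 CPM in *Zeb1 200M*. *Zeb1 200H* was above WT in CPM and overlapped with it on the TMM scale, and *Zeb1 200M* overlapped with WT on both. miR-192-5p was at 110, 87.8, 107 and 120 CPM in WT, 155, 99.9 and 53.3 CPM in *Zeb1 200H*, and 160, 88.6 and 106 CPM in *Zeb1 200M*. miR-194-5p was at 375, 421, 571 and 381 CPM in WT, 464, 433 and 404 CPM in *Zeb1 200H*, and 399, 523 and 342 CPM in *Zeb1 200M*. For both, the mutant groups overlapped with WT.

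The changes of miR-203-3p, miR-192-5p and miR-194-5p in breeding trial *Zeb1 200M* were −0.24 ± 0.31, −0.16 ± 0.30 and −0.24 ± 0.20. In *Zeb1 200H* they were 0.26 ± 0.30, −0.28 ± 0.36 and −0.15 ± 0.20. With library totals alone, the median-relative values kept these signs, while the unadjusted ones turned to 0.00 for miR-203-3p and 0.08 for miR-192-5p in *Zeb1 200M*, and to 0.02 for miR-194-5p in *Zeb1 200H*.

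In edgeR, 0 of 4 tested members were called in breeding trial *Zeb1 200M*, where 35.9% of 276 miRNAs were called. In *Zeb1 200H*, 0 of 4 were called, where 12% of 267 were called. Between the mutants, 0 of 4 were called, where 1.09% of 274 were called. In each of these comparisons 0 of the 4 members had an unadjusted p under 0.05. DESeq2 called 0 of 4 in *Zeb1 200M*, where it gave miR-31-3p no adjusted p, and 0 of 5 in the others.

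**Figure D2:**
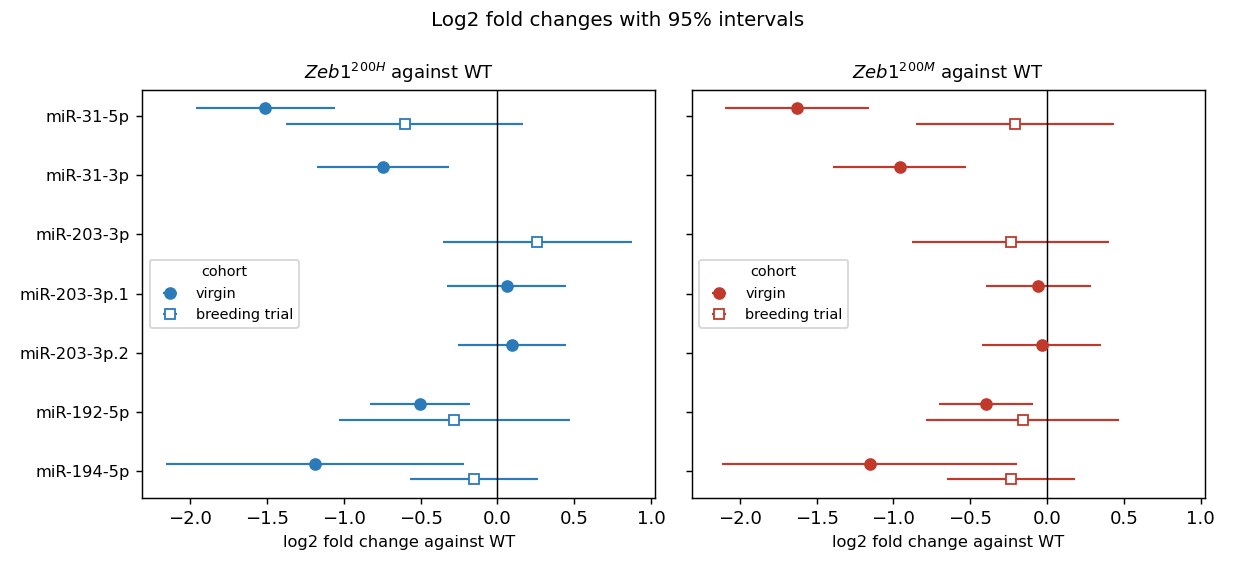
Log2 fold change against WT (horizontal axis) of each member in *Zeb1 200H* (left) and *Zeb1 200M* (right), with 95% intervals from edgeR, for the virgin cohort (filled circles) and the breeding trial cohort (open squares). The virgin intervals of miR-31-5p, −1.97 to −1.06 and −2.10 to −1.16, lie away from 0, and those of both miR-203-3p entries span 0 in both mutants.

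Whether the effect on miR-31 differs between cohorts was tested as the effect in the breeding trial cohort minus that in the virgin cohort, in 1 fit over 21 libraries and the names shared by both. For miR-31-5p the difference was 1.43 ± 0.34 (95% interval 0.72 to 2.14) for *Zeb1 200M*, a smaller fall in the breeding trial cohort, and did not pass the correction (edgeR Benjamini-Hochberg adjusted p = 0.186). For *Zeb1 200H* it was 0.90 ± 0.45 (−0.03 to 1.84, edgeR Benjamini-Hochberg adjusted p = 0.526). Without virgin WT replicate 1 the differences were 1.16 ± 0.30 and 0.65 ± 0.37, with edgeR Benjamini-Hochberg adjusted p-values of 0.120 and 0.776. For miR-31-3p, from the same hairpin, the difference was 0.16 ± 0.52 (95% interval −0.92 to 1.25) for *Zeb1 200M* and −1.06 ± 0.88 (−2.88 to 0.77) for *Zeb1 200H*, the latter in the other direction from miR-31-5p and neither called (edgeR Benjamini-Hochberg adjusted p = 0.9997 and 0.697). Without breeding trial *Zeb1 200M* replicate 2, the former turned to −0.52, without breeding trial WT replicate 3 to −0.043, and without replicate 4 of that WT group to −0.071.

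No miRNA passed this test. With edgeR, 0 of 5 members and 0% of 576 miRNAs were called for *Zeb1 200M*, with 1 member and 44 miRNAs at an unadjusted p under 0.05. For *Zeb1 200H*, edgeR called 0 of 5 and 0% as well, with 1 member and 51 miRNAs at that level. DESeq2 also called 0 of 5 and 0 miRNAs in both. For miR-194-5p the differences were 0.91 ± 0.44 and 1.02 ± 0.45, and without virgin WT replicate 1 they were 0.05 ± 0.20 and 0.19 ± 0.20. For miR-203-3p and miR-192-5p all 4 differences lay between −0.18 and 0.27.

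The WT groups differed most for miR-31-5p among the members. Breeding trial WT was lower than virgin WT by a log2 change of −1.72 ± 0.22 (edgeR Benjamini-Hochberg adjusted p = 5.76e-06), or −1.47 ± 0.18 without virgin WT replicate 1 (2.93e-07). Over all 576 miRNAs the median of this contrast was −0.19 with TMM, −0.08 with DESeq2 size factors and 0.17 with library totals alone, and relative to these medians miR-31-5p changed by −1.53, −1.54 and −1.47. The WT level of 83.5 to 123 CPM in the breeding trial cohort thus took in the levels of the virgin mutants.

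Of the 5 members, 3 were called between the WT groups, all lower in the breeding trial cohort, where 19.8% of 576 miRNAs were called. The others called were miR-194-5p (−1.25 ± 0.30), which shrank to −0.40 ± 0.14 without virgin WT replicate 1, and miR-203-3p (−1.01 ± 0.20). The call of miR-203-3p held only with its virgin entries added up: with miR-203-3p.1 alone the change was 0.07, and with miR-203-3p.2 alone −0.11, neither called. Library totals alone also ended it (−0.68, adjusted p = 0.0550 in edgeR), with a change of −0.85 relative to the median of all miRNAs. miR-192-5p (−0.29 ± 0.23) and miR-31-3p (−0.15 ± 0.30) were not called, and their signs turned with library totals alone. The cohorts also differed in age, mating, RNA input, sequencing, the list of miRNAs matched and, by the sample labels, adapters, and yeast carrier RNA was added in the breeding trial cohort; these cannot be told apart.

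The loss of miR-31-5p ran alongside that of the epithelial clusters in the virgin libraries. Over 11 libraries and 501 miRNAs, the profiles most like miR-31-5p were miR-200a-5p (Pearson r = 0.996), miR-200b-5p (0.986) and miR-200a-3p (0.983). Without WT replicate 1 they were miR-200a-5p (0.993), miR-96-5p (0.988) and miR-205-5p (0.988). These libraries fall into WT and mutant levels, so r describes that step and carries no test. For miR-31-3p they were miR-1839-3p (0.989), miR-376b-3p (0.956) and miR-484 (0.953), and without WT replicate 1 miR-1839-3p (0.987), miR-200b-5p (0.983) and miR-429-3p (0.978).

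Of the other members, miR-192-5p was most like miR-181b-5p (0.920), miR-382-5p (0.910) and miR-31-5p (0.903). With a minimum mean of 10 counts, miR-429-5p of a miR-200 cluster came before them (0.939), and it was also the third nearest to miR-31-5p (0.984). miR-194-5p was most like miR-345-3p (0.993), miR-872-5p (0.988) and miR-370-3p (0.985). The highest r of miR-203-3p.1 was 0.688, with miR-542-3p, and that of miR-203-3p.2 was 0.850, with miR-375-5p. Without WT replicate 1, 0 of the 3 nearest names remained for miR-192-5p, miR-194-5p and miR-203-3p.1, and 1 of 3 for miR-203-3p.2; the nearest were then miR-495-5p (0.903), miR-181c-5p (0.959), miR-16-5p (0.721) and miR-26a-5p (0.720). Between the 2 strands of miR-31, r was 0.787, and 0.947 without WT replicate 1. No member reached the mean of 50 counts required for this measure in the breeding trial cohort. With a minimum mean of 10 counts, miR-31-5p was most like miR-350-3p (0.880), miR-342-3p (0.768) and miR-664-3p (0.717) there.

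For comparison, the 9 miRNAs listed for the miR-200, miR-205 and miR-183 clusters were called lower in every comparison with WT in both cohorts. Of all miRNAs tested, 3.83% and 3.42% were called lower in virgin *Zeb1 200M* and *Zeb1 200H*, and 15.6% and 7.12% in the breeding trial cohort. The median log2 fold change of the 9 miRNAs was −2.98 in virgin *Zeb1 200M* and −2.45 in virgin *Zeb1 200H*. In the breeding trial cohort it was −2.94 and −2.37, beside medians of all miRNAs near 0 throughout. The smallest fall among them in virgin *Zeb1 200M*, that of miR-182-5p, was −1.85 ± 0.13, compared with −1.63 ± 0.20 for miR-31-5p. In virgin *Zeb1 200H* miR-182-5p changed by −1.48 ± 0.15 and miR-31-5p by −1.51 ± 0.20, which did not differ beyond their errors.

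Between the cohorts, the median difference of these 9 miRNAs was 0.23 for *Zeb1 200M* and −0.14 for *Zeb1 200H*, and edgeR called 0 of 9 in both, with 0 at an unadjusted p under 0.05 and 0 by DESeq2. miR-205-5p, which with miR-203-3p formed a list of keratinizing epithelium, fell by 3.07 in virgin *Zeb1 200M* and by 2.88 in virgin *Zeb1 200H* on the log2 scale. The pair thus split, with miR-205-5p called lower and miR-203-3p not called in the same libraries.

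Lists of cell type markers were summed in the same libraries. The keratinizing and the gut and kidney lists hold members themselves, so their sums are not independent of the members. Over all miRNAs, edgeR gave 150 of 678 an unadjusted p under 0.05 in virgin *Zeb1 200M* and 131 of 672 in virgin *Zeb1 200H*. In the breeding trial cohort these were 123 of 276 and 73 of 267. DESeq2 called 87 of 1318 and 66 of 1339 miRNAs in the virgin cohort. Its calls in the breeding trial cohort were 73 of 709 and 25 of 690. The list of keratinizing epithelium (2 of 2 found, none at 0, led by miR-205-5p) summed to 1208, 2777 and 3221 CPM in virgin WT replicates 1, 2 and 4, to 549, 534, 624 and 569 CPM in *Zeb1 200H* and to 559.9, 498, 505 and 543 CPM in *Zeb1 200M*. Among breeding trial libraries it summed to 3022, 4020, 3139 and 2625 CPM in WT, 509, 449.7 and 571 CPM in *Zeb1 200H*, and 399, 741 and 521 CPM in *Zeb1 200M*. Every mutant library was below every WT library in both cohorts, and miR-205-5p was its 1 member called, in each mutant. The list of gut and kidney epithelium (3 of 3 found, none at 0, led by miR-194-5p) consisted of miR-192-5p, miR-194-5p and miR-215-5p, and edgeR called 0 of 3 against WT in each virgin mutant, with 2 at an unadjusted p under 0.05 in each and 2 and 1 by DESeq2 in *Zeb1 200M* and *Zeb1 200H*. For breeding trial mutants the counts were 0 of 2 by edgeR, 0 unadjusted and 0 by DESeq2. It summed to 1069, 545 and 555 CPM in virgin WT, 464 to 490.3 CPM in *Zeb1 200H* and 486 to 527 CPM in *Zeb1 200M*, and in breeding trial libraries it stayed between 448 and 678 CPM in every genotype.

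Neuronal miRNAs (5 of 5 found, none at 0, led by miR-124-3p) summed to 1327, 2610 and 2895 CPM in virgin WT replicates 1, 2 and 4. In virgin *Zeb1 200H* replicates 1 to 4 the sums were 5612, 5762, 6069 and 6162 CPM, and in *Zeb1 200M* they were 9109, 7814, 9064 and 6300 CPM. In the breeding trial cohort they summed to 3294, 3037, 2902 and 3564 CPM in WT, 7573, 6229 and 7630 CPM in *Zeb1 200H*, and 10939, 11080 and 11481 CPM in *Zeb1 200M*. In these sums every mutant library was above every WT library in both cohorts, and 2 of 6 tested entries were called higher in each virgin mutant, where 2.65% of all miRNAs were called higher in *Zeb1 200M* and 1.64% in *Zeb1 200H*. In the breeding trial cohort, 2 of 4 were called higher in *Zeb1 200M*, where 20.3% of all were, and 1 of 4 in *Zeb1 200H*, where 4.87% were. With replicate number as a block, 23 of all 267 miRNAs were called higher in the latter, compared with 13 without it. The part of neuronal miRNAs in the result for miR-31-5p was not tested.

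Pituitary endocrine miRNAs (3 of 3 found, none at 0, led by miR-7a-5p) summed to 269425 to 368951 CPM in virgin WT, highest in replicate 1, and to 231804 to 279905 CPM in the mutants, with 0 of 3 called by edgeR in either, 2 and 1 at an unadjusted p under 0.05 in *Zeb1 200M* and *Zeb1 200H*, and 1 in each by DESeq2. In the breeding trial cohort they summed to 288001 to 314366 CPM in WT and 246486 to 289256 CPM in the mutants, where 2 of 3 were called lower for *Zeb1 200M*, beside 15.6% of all miRNAs, and 1 of 3 for *Zeb1 200H*, beside 7.12%. On the TMM scale every mutant library was below every WT library, at 211995 to 267804 compared with 278719 to 598947 CPM in the virgin cohort and at 226758 to 282476 compared with 301572 to 342447 CPM in the breeding trial cohort. The median log2 fold change of the list was −0.79 in virgin *Zeb1 200M* and −0.64 in virgin *Zeb1 200H*. In the breeding trial cohort it was −0.45 and −0.16. The pituitary marker miR-7a-5p was at 124175 CPM on average over the virgin libraries and at 117402 CPM over those of the breeding trial cohort.

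Blood miRNAs (7 of 7 found, none at 0, led by miR-451a) summed to 5750, 8291 and 10283 CPM in virgin WT and to 9012 to 19751 CPM in the mutants. For them edgeR called 0 of 8 entries in either virgin mutant, with 2 at an unadjusted p under 0.05 and 1 by DESeq2 in each. In breeding trial *Zeb1 200M*, 3 of 6 were called higher, beside 20.3% of all miRNAs. In breeding trial *Zeb1 200H*, edgeR called 0 of 6, with 2 at an unadjusted p under 0.05 and 0 by DESeq2. Their sums there ran from 6350 to 9312 CPM in WT and from 7854 to 12735 CPM in the mutants.

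Vessel and mesenchyme miRNAs (6 of 6 found, none at 0, led by miR-126a-3p) summed to 7999, 8665 and 7878 CPM in virgin WT and to 8978 to 12230 CPM in the mutants. Of their entries, 1 of 7 was called higher in virgin *Zeb1 200M*, beside 2.65% of all miRNAs, and 4 of 6 in breeding trial *Zeb1 200M*, beside 20.3%. For *Zeb1 200H*, edgeR called 0 of 7 in the virgin and 0 of 5 in the breeding trial cohort, with 1 at an unadjusted p under 0.05 and 0 by DESeq2 in each. Breeding trial sums were 10243 to 10699 CPM in WT and 12942 to 16244 CPM in the mutants, so in CPM the groups did not overlap in either cohort. On the TMM scale the virgin groups overlapped, with WT at 8039 to 12985 and the mutants at 8354 to 11483 CPM, WT replicate 1 being the highest.

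Skeletal muscle miRNAs (3 of 3 found in the virgin and 2 of 3 in the breeding trial tables, none at 0 throughout, led by miR-1a-3p) summed to 6.42 to 14.1 CPM in virgin WT and 14.0 to 73.9 CPM in the mutants. For these edgeR called 0 of 3 in virgin *Zeb1 200M*, with 3 at an unadjusted p under 0.05 and 2 by DESeq2, and 0 of 2 in virgin *Zeb1 200H*, with 1 unadjusted and 1 by DESeq2. The liver miRNA miR-122-5p ranged from 2.36 to 7.93 CPM in virgin libraries, and edgeR called it in neither mutant (0 and 1 at an unadjusted p under 0.05 in *Zeb1 200M* and *Zeb1 200H*, 0 by DESeq2). Breeding trial sums of muscle and liver miRNAs ranged from 0 to 31.3 CPM and from 0 to 49.97 CPM and were too low to test within that cohort. The part of these lists in the results for the members was not tested.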

How the data were processed

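Small-RNA libraries of 21 pituitaries were analysed from 6 tables of raw counts. Before they deposited these counts, the authors removed adapters (cutadapt), dropped reads with low base quality, matched the first 19 bases (virgin) or 18 bases (breeding trial) of each read to a list of mouse miRNAs, and removed spike-ins. The submitters' processing notes also name DESeq2 (version 1.38.3 for the virgin cohort). The 42 columns of normalized counts and the authors' own comparison columns, which hold fold changes and p-values, were not used. Each library stands in a pair of tables with identical counts and was used once.

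Genotypes were compared within a cohort with edgeR 4.0.16 in R 4.3.3: quasi-likelihood F test, TMM factors, expression filter (minimum count 10, minimum total 15), Benjamini-Hochberg adjustment over all miRNAs tested, threshold 0.05 for a call. Standard errors were derived from the F statistic and the p-value of the same test, using the larger, and the 95% intervals are per miRNA and unadjusted. The difference between cohorts was an interaction over 6 groups and 1828 shared names, with miR-203-3p.1 and miR-203-3p.2 added up. Intervals of single libraries are exact Clopper-Pearson intervals (scipy 1.17.1), and a floor is 3 counts. The test was tested on simulated data. Plots were drawn with matplotlib 3.10.9.

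Alternatives were DESeq2 1.42.0, DESeq2 size factors, library totals alone, no filter, TMM factors from all but the 10 strands of the miR-200 superfamily, 1 fit with 3 genotypes, replicate number as a block, miR-203-3p.1 or miR-203-3p.2 alone, and leaving out each library. No pairing of libraries by replicate number is given in the sources used here. As a check, it was asked where every same-numbered pair of libraries had r above 0.1 across miRNAs. This held only in the breeding trial cohort, between WT and *Zeb1 200H* (r = 0.1124, 0.1005 and 0.1901). Single pairs elsewhere reached up to 0.2175, between virgin *Zeb1 200M* and *Zeb1 200H* replicate 3. The values given are without a replicate block, which left 0 of 4 members called and called 47 of 267 miRNAs, compared with 32 without it. Of these, 23 were called higher with the block and 13 without it.

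Named miRNAs were the members, the other strands and partners of their hairpins, and, for each member with a mean of at least 50 counts, the 3 miRNAs with the highest Pearson r of log2 CPM (TMM, prior count 2). Lists of the other epithelial clusters and of endocrine, neuronal, blood, vessel and mesenchyme, skeletal muscle, liver, keratinizing, and gut and kidney miRNAs were described by counts and medians. Members and lists were chosen with earlier results of these data known.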

Additional observations from a re-analysis of the deposited data

How the results depend on the processing

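miR-31-5p was called lower in both virgin comparisons with WT under every alternative tried, with values of −1.74 to −1.19 in *Zeb1 200M* and −1.63 to −1.13 for *Zeb1 200H*. Its difference between cohorts missed the threshold under every alternative, from 1.16 to 1.55 and from 0.65 to 1.17, with edgeR and DESeq2 adjusted p-values of 0.0959 to 0.901 and 0.274 to 1. Without breeding trial WT replicate 1, miR-31-5p failed the filter in *Zeb1 200H* against WT and has no value there. Of the log2 fold changes of members, 276 kept direction and side of the threshold under other settings and 496 when a library was left out; 13 and 20 reversed, 7 and 4 gained a call, and 4 and 6 lost one.

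Members called in virgin *Zeb1 200M* were 4 with DESeq2, 3 in 1 fit with 3 genotypes, 1 with library totals alone, 1 with the replicate block, and 1 to 3 when a library was left out. In virgin *Zeb1 200H* they were 3 with DESeq2, 3 in 1 fit with 3 genotypes, and 1 to 4 when a library was left out. For all miRNAs, 44 calls in virgin *Zeb1 200M* became 87 with DESeq2, 90 with 3 genotypes, 20 with the replicate block and 25 to 168 when a library was left out, and 34 in virgin *Zeb1 200H* became 66, 67, 18 and 21 to 151. The 15 calls between virgin mutants became 5 with 3 genotypes, and the 3 between breeding trial mutants became 5 with the block and 3 to 5 when a library was left out. Differences between cohorts numbered 7 and 5 with no filter, and 0 to 1 and 0 to 3 when a library was left out. The cause was not tested.

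With library totals alone, higher and lower calls were 39 and 19 in virgin *Zeb1 200M* (18 and 26 with TMM), 21 and 21 in virgin *Zeb1 200H* (11 and 23), 83 and 26 in breeding trial *Zeb1 200M* (56 and 43), 53 and 15, or 68 in all, in breeding trial *Zeb1 200H* (13 and 19, 32 in all), and 43 and 39 between WT groups (24 and 90). Between WT groups DESeq2 gave 62 and 75, and its size factors 39 and 69.

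Signs that reversed belonged to values that were not called, apart from miR-203-3p between WT groups. With library totals alone these were miR-203-3p.1 (0.32) and miR-203-3p.2 (0.30) in virgin *Zeb1 200M*, miR-192-5p (0.081), miR-203-3p (0.0004) and miR-31-5p (0.029) in breeding trial *Zeb1 200M*, miR-194-5p (0.022) in breeding trial *Zeb1 200H*, and miR-192-5p (0.063) and miR-31-3p (0.15) between WT groups. With no filter, miR-203-3p.1 and miR-203-3p.2 were at 0.018 and 0.027 in virgin *Zeb1 200M*. With the replicate block, miR-203-3p.2 was at 0.017 there and miR-203-3p.1 at −0.046 in virgin *Zeb1 200H*. Between WT groups, miR-203-3p was at 0.075 with miR-203-3p.1 alone. The cause was not tested.

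When a library was left out, miR-203-3p.1 ranged from −0.12 to 0.014 and miR-203-3p.2 from −0.13 to 0.052 in virgin *Zeb1 200M*, and from −0.049 to 0.13 and −0.027 to 0.18 in virgin *Zeb1 200H*. miR-194-5p ranged from −0.0034 to 0.069 between virgin mutants and from −0.27 to 0.071 between breeding trial mutants. miR-192-5p ranged from −0.38 to 0.013 in breeding trial *Zeb1 200M*, from −0.81 to 0.14 in breeding trial *Zeb1 200H* and from −0.27 to 0.70 between them. Differences between cohorts ranged from −0.53 to 0.0013 for miR-203-3p and from −0.52 to 0.36 for miR-31-3p in *Zeb1 200M*, and from −0.34 to 0.65 for miR-192-5p in *Zeb1 200H*.

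By the sources used here, the groups share only a replicate number, with r of same-numbered libraries from −0.2976 to 0.2175. The replicate block ended the call of miR-31-3p in virgin *Zeb1 200M* (log2 fold change −0.9645, and −0.9595 without the block; edgeR adjusted p = 0.264 and 0.0194) and changed no other call of a member.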
